A study of Mus musculus with 6 samples.

Results

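Sarcomere and Z-disc genes encode the contractile apparatus of striated muscle, and 51 of them were chosen by name: the myosins and their light chains, titin and its partners, the actins with troponin, tropomyosin and their capping proteins, the Z-disc and costamere proteins, and factors that assemble or turn over the fibre. Of these, 49 were among the 15330 genes of the deposited table; Myom2 and Xirp2 were not among its rows. RNA was sequenced from mouse hearts dissected at embryonic day 9.5 (E9.5), in 3 libraries from H2-URI d/d embryos and 3 from wildtype embryos, all in batch 1. In H2-URI d/d embryos both alleles lack 373 kb of DNA that lies upstream of Hand2, the gene of a transcription factor of the developing heart; the deletion was made with CRISPR-Cas9. Each group has 2 libraries labelled female and 1 labelled male. The labels name no strain and do not say whether a library holds 1 heart or several, so the spread behind the p-values is that of these 6 libraries and may be technical. The comparison asks how contractile genes stand in hearts that lack the upstream region.

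A sarcomere is the repeated unit between 2 Z-discs. Myosin thick filaments slide along actin thin filaments when calcium binds troponin and tropomyosin moves off the myosin sites on actin. Titin spans from Z-disc to M-band as a molecular spring, and α-actinin crosslinks the thin filaments at the Z-disc. The E9.5 heart already beats, and it expresses both α- and β-myosin heavy chain, smooth muscle and skeletal actin besides cardiac actin, and the slow skeletal form of troponin I, which cardiac troponin I replaces around birth.

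Summed over the 15330 genes of the deposited table, the recovered reads numbered 26679958, 30117718 and 26016264 in the deletion group. In wild-type they numbered 25583210, 32028443 and 32043595. For 4 of the 6 samples the file recorded under the sample carries a column code that the titles give to a sample of the other group, and columns were matched to samples through the codes in the titles. With columns assigned this way, Hand2 stood at 1025, 1158 and 1163 normalized counts in deletion hearts, against 3911, 3789 and 4407 in wild-type hearts (log2 fold change -1.85, adjusted p = 1.51e-05, limma). With the recorded assignment 0 genes passed the test in limma. Of the 49 measured members 2 then had an unadjusted p under 0.05, and the share of all genes at that p is not given for this assignment. The other tools were run only on the assignment by titles. All 14 cardiomyocyte markers outside the members were measured, and their summed level was 252993 to 270506 normalized counts in deletion hearts and 220797 to 262674 in wild-type hearts. Slc8a1 and Atp2a2 were the largest parts of that sum in every library. Gata4, Tbx5, Ryr2 and Atp2a2 stood above in all deletion libraries, as did 12.9% of all genes, and the rest overlapped. None of the 14 passed in limma, and DESeq2 called Ryr2 higher (adjusted p = 0.00355). All 6 markers of cushion and outflow mesenchyme were measured, with none at 0. They summed to 3332 to 5091 in deletion hearts and 6430 to 8431 in wild-type hearts. Col3a1 was the largest part of that sum in every library, with 1443 to 2061 against 3931 to 4668 normalized counts. Twist1, Postn and Col3a1, 3 of the 6, fell in limma. The groups overlapped for Prrx1, Pdgfra and Sox9, with log2 fold changes of -0.04, -0.16 and 0.14. The part of such cells in the members' values was not tested. None of the 7 markers of skeletal muscle progenitors was among the rows.

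3 members carry microRNA genes in introns, and the mature sequences are shown because Myh7b, the member with the lowest adjusted p, is one of the hosts. Capitals mark the seed, bases 2 to 8 from the 5′ end, which pairs with target messages; the sequences and positions are from RefSeq, build GRCm38.p6. They lie in Myh7b (chr2:155622893-155622913, plus strand), Myh6 (chr14:54949072-54949093, minus strand) and Myh7 (chr14:54975710-54975731, minus strand).
mmu-miR-499-5p, in Myh7b: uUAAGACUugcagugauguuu
mmu-miR-208a-3p, in Myh6: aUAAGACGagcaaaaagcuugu
mmu-miR-208b-3p, in Myh7: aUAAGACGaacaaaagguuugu
The Myh6 and Myh7 microRNAs have the same seed, and the first 6 letters of the Myh7b seed are the same too. Mature microRNAs were not measured by these poly(A) libraries, and only their hosts have values here.

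RefSeq promoter windows, from 250 bases before to 50 after a gene's start in GRCm38.p6, were matched by symbol for 41 of the 49 members, with the first listed window used. The 250 bases before the start are shown for the 2 members that passed the test, for Myoz2, whose fold change was the largest upward one, and for Actc1, cardiac α-actin, whose level did not separate the groups. Capitals mark a CArG box, the motif of serum response factor, or a MEF2 site, the motif of the MEF2 factors; both are A- and T-rich motifs known from muscle promoters.
Myh7b, chr2:155610993-155611242, plus strand: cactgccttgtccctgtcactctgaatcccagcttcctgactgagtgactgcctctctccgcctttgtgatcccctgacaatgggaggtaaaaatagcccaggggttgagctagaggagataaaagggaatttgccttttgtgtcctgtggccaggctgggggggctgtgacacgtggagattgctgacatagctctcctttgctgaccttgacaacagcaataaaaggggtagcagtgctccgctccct
Tpm2, chr4:43523555-43523804, minus strand: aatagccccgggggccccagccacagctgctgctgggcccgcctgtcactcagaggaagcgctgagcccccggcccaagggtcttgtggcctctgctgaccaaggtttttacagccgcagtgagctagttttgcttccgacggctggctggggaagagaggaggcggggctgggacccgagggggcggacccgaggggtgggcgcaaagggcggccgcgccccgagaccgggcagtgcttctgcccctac
Myoz2, chr3:123034988-123035237, minus strand: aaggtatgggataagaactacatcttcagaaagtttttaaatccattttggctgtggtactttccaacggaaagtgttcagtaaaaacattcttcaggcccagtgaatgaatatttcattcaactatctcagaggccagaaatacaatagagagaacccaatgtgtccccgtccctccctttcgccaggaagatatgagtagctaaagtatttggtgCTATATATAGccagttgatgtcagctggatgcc
Actc1, chr2:114052876-114053125, minus strand: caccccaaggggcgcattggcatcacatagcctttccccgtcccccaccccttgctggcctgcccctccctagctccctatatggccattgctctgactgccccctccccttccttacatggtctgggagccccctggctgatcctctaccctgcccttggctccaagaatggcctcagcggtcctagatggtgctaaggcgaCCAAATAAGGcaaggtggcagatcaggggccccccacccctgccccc
The Myoz2 sequence holds a MEF2 site from -33 to -24 and the Actc1 sequence a CArG box from -47 to -38, counted from the start. Neither motif was found in the Myh7b or the Tpm2 sequence, which says only that these letters are not in these windows.

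Both strands of the 41 windows were searched, and the shares are set beside those of all 27025 windows of the same length. A CArG box was found for 8 members (19.5%, against 1.57% of all windows), namely Myl3, Myl7, Myl9, Myom1, Actc1, Acta1, Ldb3 and Fhl2. A MEF2 site was found for 5 members (12.2%, against 3.26%), namely Mybpc3, Ttn, Myoz2, Fhl2 and Synpo2l. CATTCC, the core of the M-CAT motif of TEAD factors, was found for 16 members (39.0%, against 14.6%), TATAAA for 7 (17.1%, against 14.2%) and the E-box CANNTG for 37 (90.2%, against 72.2%). A MEF2 site can contain TATAAA, so these counts may overlap. A match is a description of the letters and not of a bound site.

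The members' levels spanned a wide range. Per kilobase (kb) of the longest principal transcript, Myl7, the atrial regulatory light chain, was the highest, with 165472 ± 16048 normalized counts per kb in deletion hearts and 193810.0 ± 28267 in wild-type hearts (SD, n = 3 each). Actc1 followed with 158439 ± 6692 in deletion hearts and 156749 ± 22024 in wild-type hearts. The ranges of Myl7 and Actc1 over libraries overlapped in both groups, and Myl7 was the higher of them in all 3 wild-type libraries. Myl2, the ventricular regulatory light chain, came next at 80617 ± 5310.4 normalized counts per kb in deletion hearts and 87154 ± 8757 in wild-type hearts, and its values overlapped those of Myl4, the atrial essential light chain, at 73442 ± 5593 and 80516 ± 12529. These places at the top belong to light chains and actin, the small and abundant parts of both filaments. At the low end stood Mypn (myopalladin), with 14.6 ± 1.29 and 15.5 ± 2.09 normalized counts per kb in deletion and wild-type hearts, and Myot (myotilin), with 10.7 ± 3.87 and 24.8 ± 5.09. Myh7b, with a mean of 265 normalized counts per kb over all 6 libraries, and Myoz2, with 288, ranked 47 and 46 of the 49. With the longest transcript of any kind in place of the principal one, Myl4 moved down to rank 9 and Tnnt2 to rank 11, against ranks 4 and 5.

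Among 49 measured members, 2 rose in deletion hearts and 0 fell at an adjusted p under 0.05 in limma, against 3.05% of all 15330 genes in either direction (1.55% higher, 1.5% lower). Those 2 were Myh7b and Tpm2, 4.08% of the members, a share near the background for both directions. An unadjusted p under 0.05 was reached by 12 members (24.5%), 9 higher and 3 lower, against 21.4% of all genes (10.2% higher, 11.2% lower). edgeR on the recovered reads called 3 members higher and 0 lower (all genes 3.26%, with 1.75% higher). DESeq2 called 8 of the 49 higher and 2 lower. Of the 14438 genes to which DESeq2 gave an adjusted p, it called 7.89%, with 3.73% higher and 4.16% lower. The nearness to the background is thus that of limma, and the share of members called by DESeq2 was above its background. That excess was not tested. In 10 members (20.4%) all deletion libraries stood above all wild-type libraries, against 12.9% of all genes, and in 2 (4.08%) below, against 14.5% (27.4% either way). The median log2 fold change was 0.02 over the members and -0.0073 over all genes. The 95% interval of the fold change lay within a 2-fold change either way for 47 members and within 1.5-fold for 43; the 6 outside 1.5-fold were Myh7b, Tnni1, Ttn, Myoz2, Myot and Ankrd1. In whole hearts, fewer cells of a type and less RNA per cell cannot be told apart.

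**Figure D1:**
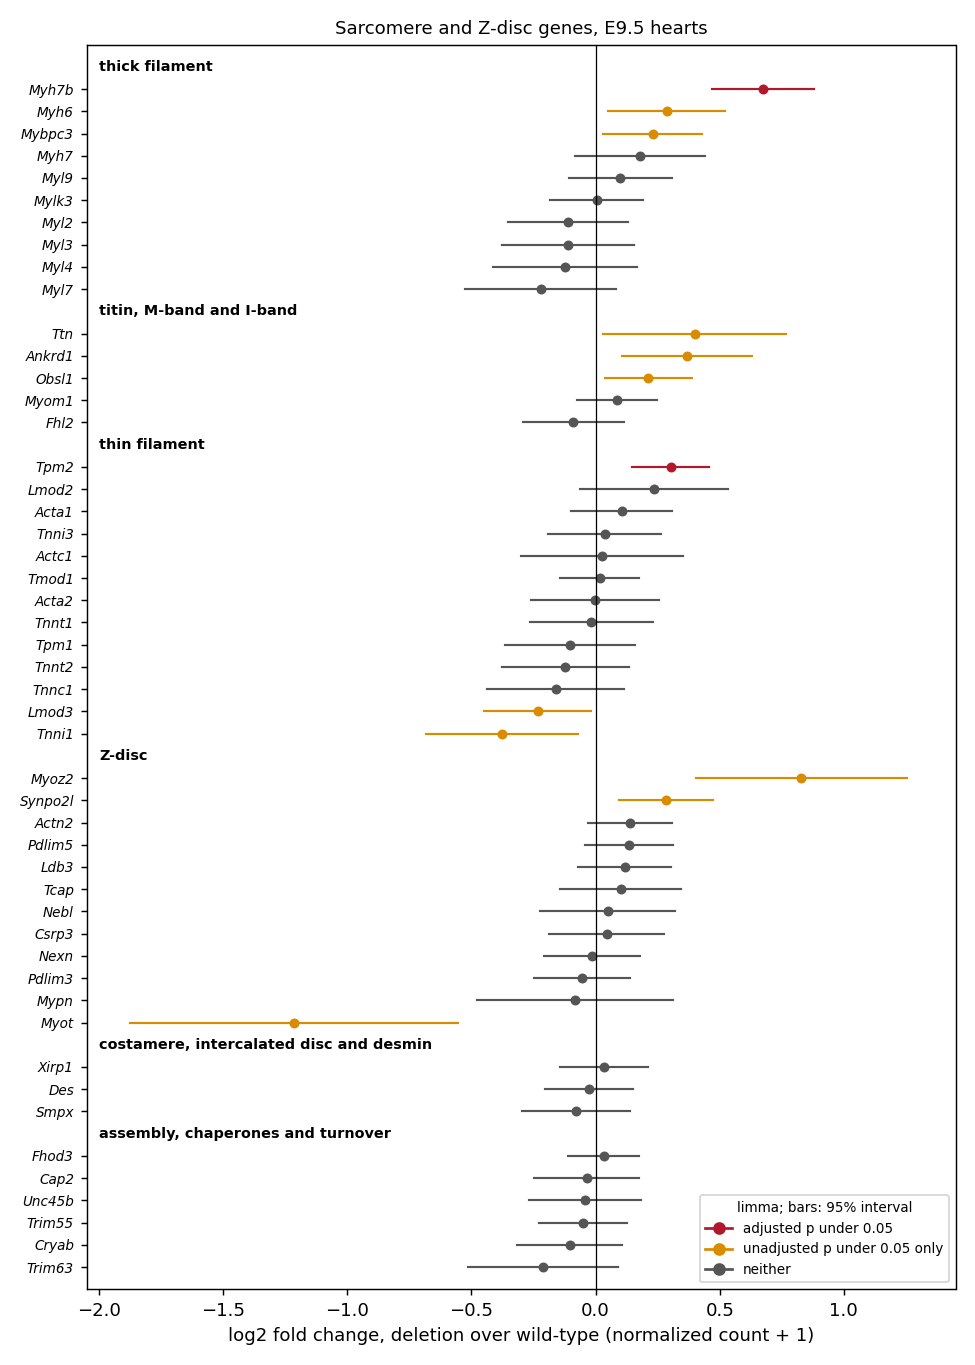
Log2 fold change of each measured member, deletion over wild-type on the log2(normalized count + 1) scale, grouped by role; points are limma estimates and bars 95% intervals. Myh7b and Tpm2 are the 2 members past the adjusted threshold, 10 more pass only unadjusted, and most intervals cross 0.

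Apart from Myh7b, the members called changed with the library left out. Myh7b alone was called when any 1 deletion replicate, or wild-type replicate 1, was left out. Of all 15330 genes, 138, 103 and 165 were called without deletion replicates 1, 2 and 3, and 616 without wild-type replicate 1. With all 6 libraries 467 were called. Leaving out wild-type replicate 2 gave Myh7b and Tpm2 as higher and Tnni1 and Myot as lower, with 1161 of all genes called. Leaving out wild-type replicate 3 gave Myh7b, Myoz2 and Ankrd1 as higher, with 168 of all genes called. The number of members called thus changed along with the number of all genes called. Myh7b was called in all 6 of these fits.

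Of the 10 thick filament members, all measured, 1 rose in deletion hearts and the other 9 did not pass in limma; DESeq2 also called Myh6 and Mybpc3 higher. Myh7b, a slow-type myosin heavy chain, had 1895, 2226 and 1908 normalized counts in deletion hearts, against 1125, 1335 and 1316 in wild-type hearts. The lowest deletion library stood above the highest wild-type library. The means were 2009 ± 187 in deletion hearts and 1259 ± 116 in wild-type hearts (SD, n = 3 each), so that the deletion mean was 159.6% of the wild-type mean, with a log2 fold change of 0.67 (SE 0.09, limma adjusted p = 0.00622). The adjusted p was between 0.00554 and 0.0381 when each library was left out, and 0.0829 in the 4 female libraries alone. Exons of Trpc4ap lie on the opposite strand within the Myh7b locus, and Trpc4ap had 2843 ± 71.7 normalized counts in deletion hearts and 2934 ± 59.8 in wild-type hearts (adjusted p = 0.693, limma). Whether reads were counted by strand is not given in the sources used here.

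Myh6, the α heavy chain of fast atrial-type contraction, had 140468, 141097 and 128218 normalized counts in deletion hearts, against 111425, 109049 and 115153 in wild-type hearts. All deletion libraries stood above all wild-type libraries, with a log2 fold change of 0.29 (SE 0.11) and an adjusted p of 0.159 in limma, against 9.44e-04 in DESeq2. Myh7, the β heavy chain, had 172328, 186066 and 168723 in deletion hearts, against 145552, 157917 and 162153 in wild-type hearts (log2 fold change 0.18, adjusted p = 0.412, limma). These groups did not overlap either, and Myh7 passed with none of the 3 tools. Myh6 and Myh7 have near-identical stretches, and how reads that match both were counted is not given in the sources used here, so their values are uncertain.

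Mybpc3, cardiac myosin binding protein C, which sits on the thick filament and tunes crossbridges, had 45517, 47024 and 39989 normalized counts in deletion hearts, against 37959.7, 36148 and 38658 in wild-type hearts. The groups did not overlap (log2 fold change 0.23, adjusted p = 0.179, limma; DESeq2 adjusted p = 0.0359). The fold changes of Myl7, Myl2 and Myl4 were negative and did not pass, and that of Myl2 was 0.02 with quantile normalization. Myl7 had 108483, 93331 and 91071 normalized counts in deletion hearts, against 122060.0, 95209.7 and 125773 in wild-type hearts (log2 fold change -0.22, adjusted p = 0.385). Myl2 had 75289, 73387 and 66329 in deletion hearts, against 74691, 71474 and 86276 in wild-type hearts (log2 fold change -0.11). Myl4 had 74167, 69918 and 63682 in deletion hearts, against 82998, 62286 and 82494 in wild-type hearts (log2 fold change -0.12). In all 3 of these genes the groups overlapped. The 3 other thick filament members, Myl3, Myl9 and the light chain kinase Mylk3, had log2 fold changes of -0.11, 0.10 and 0.0040, and their groups overlapped.

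Of 5 measured members of the titin, M-band and I-band group, none passed in limma; 3 were higher at an unadjusted p under 0.05, and DESeq2 called Ttn and Ankrd1 higher. Ttn had 123326, 130479 and 120212 normalized counts in deletion hearts, against 71672, 113678 and 103533 in wild-type hearts. The deletion libraries all stood above, and wild-type replicate 1 stood far below the other wild-type libraries (log2 fold change 0.40, SE 0.16, adjusted p = 0.200, limma). Without wild-type replicate 1 the log2 fold change was 0.20. Ankrd1, a stress-responsive ankyrin repeat protein that binds titin in the I-band, had 25442, 26697 and 26466 in deletion hearts, against 19102, 17644 and 24824 in wild-type hearts (log2 fold change 0.37, adjusted p = 0.113). The groups did not overlap, and without wild-type replicate 3 the adjusted p was 0.0318. Obsl1, an M-band linker of titin, had 6602, 7109 and 6030.5 in deletion hearts, against 6089.6, 5451 and 5471 in wild-type hearts (log2 fold change 0.21, adjusted p = 0.159). Deletion replicate 3 lay within the wild-type range. Myom1 (myomesin, the M-band crosslinker) had 21162, 21716 and 19726 normalized counts in deletion hearts, against 18995, 19764 and 20216 in wild-type hearts. Fhl2, a LIM protein that docks on titin, had 2664, 2542 and 2387 in deletion hearts, against 3022, 2364 and 2726 in wild-type hearts. Both overlapped between the groups.

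**Figure D2:**
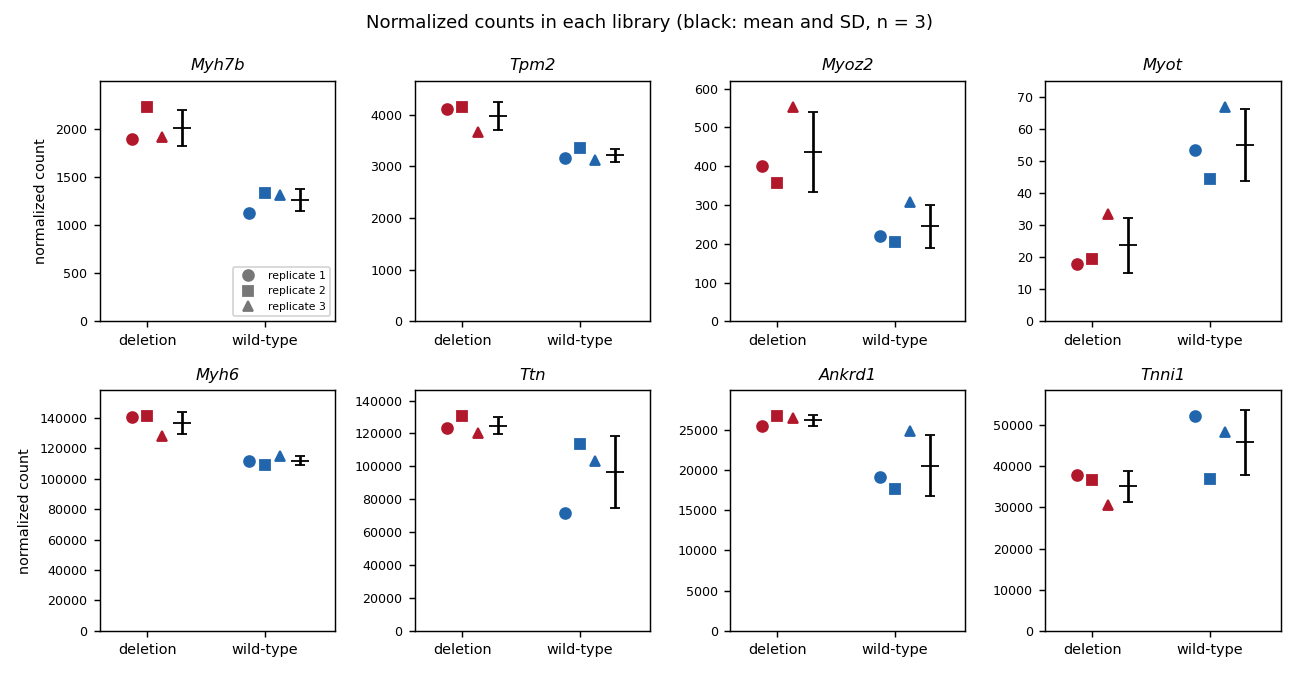
Normalized counts of 8 members in each library, on linear axes from 0, with the mean and SD in black (n = 3). The deletion libraries of Myh7b, Tpm2, Myoz2, Myh6, Ttn and Ankrd1 stand above all wild-type libraries, those of Myot below, and those of Tnni1 overlap the wild-type range.

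All 13 thin filament members were measured; 1 of them rose in deletion hearts and 12 did not pass in limma; DESeq2 also called Tnni1 lower. Tpm2, β-tropomyosin, one of the coiled coils that lie along actin, had 4105, 4150.4 and 3661 normalized counts in deletion hearts, against 3167, 3355 and 3122 in wild-type hearts. No deletion library lay in the wild-type range. The means were 3972 ± 270.3 in deletion hearts and 3214 ± 124 in wild-type hearts (SD, n = 3 each), 1.24-fold higher with a log2 fold change of 0.30 (SE 0.07, limma adjusted p = 0.0496). The call stood at the threshold. It was kept without wild-type replicate 2 (adjusted p = 0.0337), and the adjusted p was 0.0535 to 0.207 without each of the other 5 libraries. With sex as a term it was 0.0521, and without the intensity trend 0.144. The 6 genes listed as smooth muscle markers, of a cell type that also expresses Tpm2, were all measured with none at 0. Which cells of these whole hearts expressed them was not tested, so their sum is not an amount of smooth muscle. Their summed level was 37301 to 39577 normalized counts in deletion hearts and 31097 to 37101 in wild-type hearts. Tagln was the largest part, with 25532 to 26998 and 20984 to 25665. Its groups overlapped, as did those of Cnn1 and Myh11. Myh11 and Actg2 were low, with means of 184 and 39.0 normalized counts in deletion hearts and 146 and 55.8 in wild-type hearts. Lmod1 rose, and Smtn stood above in all deletion libraries without passing in limma. Actg2 stood below in all of them without passing (log2 fold change -0.48). The part of such cells in the Tpm2 value was not tested.

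Tnni1, the slow skeletal troponin I of the embryonic heart, had the lowest fold change of the thin filament members. It had 37993, 36581 and 30709 normalized counts in deletion hearts, against 52176, 37025 and 48411 in wild-type hearts. The highest deletion library lay above wild-type replicate 2, so the groups overlapped (log2 fold change -0.38, SE 0.14, adjusted p = 0.153, limma). Without wild-type replicate 2 the adjusted p was 0.0257, and DESeq2 gave 0.0251 with all libraries. Lmod3, a leiomodin that nucleates actin, had 1370.0, 1297 and 1332 in deletion hearts, against 1476, 1419 and 1836 in wild-type hearts. All deletion libraries were below all wild-type libraries (log2 fold change -0.23, adjusted p = 0.201, limma).

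Of the abundant thin filament genes, none separated the groups. Actc1 had 241444, 236306 and 222392 normalized counts in deletion hearts, against 258617, 195213 and 238844 in wild-type hearts (log2 fold change 0.02, 95% interval -0.30 to 0.35). Acta2, smooth muscle α-actin, had 107470.0, 99321 and 94126 in deletion hearts, against 109088, 89547 and 103431 in wild-type hearts. Tnnt2, cardiac troponin T, which anchors the troponin complex to tropomyosin, had 71923, 72938 and 60398 in deletion hearts, against 77666, 66663 and 78868 in wild-type hearts. The wild-type range held all deletion values of Actc1 and Acta2 and 2 of the 3 of Tnnt2. The other 7, Acta1, Tnnt1, Tnni3, Tnnc1, Tpm1, Tmod1 and Lmod2, had log2 fold changes from -0.16 (Tnnc1, cardiac troponin C) to 0.23 (Lmod2), and all 7 overlapped. The 3 actins are near-identical in their coding sequences, and the split of shared reads between them is uncertain.

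Of 12 measured Z-disc members none passed in limma, but with sex as a term Myoz2 (adjusted p = 0.00918) and Myot (adjusted p = 0.0432) did. The widest fold changes of all members were here, in 2 genes of low level. Myoz2 (calsarcin-1, which tethers calcineurin to α-actinin) had 400.0, 357 and 553 normalized counts in deletion hearts, against 221, 205 and 307 in wild-type hearts. Every deletion library was above every wild-type library, and the ratio of means was 1.78. The log2 fold change was 0.83 (SE 0.19) with an adjusted p of 0.0505 in limma, just outside the threshold. edgeR on the recovered reads gave an adjusted p of 0.0490 and DESeq2 one of 6.12e-04, and limma without wild-type replicate 3 one of 0.0450. Myot, an α-actinin-binding protein, had 17.9, 19.5 and 33.5 in deletion hearts, against 53.3, 44.5 and 66.8 in wild-type hearts. The deletion mean was 43.1% of the wild-type mean, with no overlap (log2 fold change -1.22, SE 0.29, adjusted p = 0.0585, limma; DESeq2 adjusted p = 0.0244).

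Synpo2l, an actin-bundling Z-disc protein, had 15704, 15148 and 14178 normalized counts in deletion hearts, against 12043, 11320.2 and 13710.0 in wild-type hearts (log2 fold change 0.28, adjusted p = 0.0982, limma; DESeq2 adjusted p = 0.0161). Actn2, sarcomeric α-actinin, had 21590.0, 21063 and 21001 in deletion hearts, against 19541, 17830.3 and 20579 in wild-type hearts (log2 fold change 0.14, adjusted p = 0.328, limma). In both genes the deletion libraries stood above all wild-type libraries. Nebl (nebulette, which binds actin at the Z-disc) had 41527, 37206 and 37776 in deletion hearts, against 31197, 38655 and 43638 in wild-type hearts. Csrp3 (muscle LIM protein) had 14591, 13428 and 13939 in deletion hearts, against 14736, 11379.8 and 14849 in wild-type hearts. These overlapped, as did the other 6, Ldb3, Tcap, Mypn, Nexn, Pdlim3 and Pdlim5, with log2 fold changes from -0.08 to 0.13.

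None of the 3 measured costamere and desmin members and none of the 6 assembly and turnover members passed in limma, edgeR or DESeq2, and none of these 9 had an unadjusted p under 0.05 in limma. Des, desmin, the intermediate filament that links Z-discs, had 12205, 13272 and 11519.9 normalized counts in deletion hearts, against 13202, 11623 and 12849.8 in wild-type hearts. Xirp1 (Xin, of the intercalated disc) had 8017, 7974 and 7385 in deletion hearts, against 7567, 6932 and 8371 in wild-type hearts. Smpx (a small costamere protein) had 8772, 8253 and 8321 in deletion hearts, against 8538, 7948 and 10474 in wild-type hearts. The groups overlapped in all 3. Cryab, a small heat shock chaperone of desmin, had 7829.6, 7462 and 7028 in deletion hearts, against 8529.9, 6879 and 8690.4 in wild-type hearts. Unc45b, the myosin folding chaperone, had 12661, 12078 and 10398 in deletion hearts, against 12954, 10569 and 12676 in wild-type hearts. The muscle ubiquitin ligases followed with the same overlap. Trim55 had 8761, 8344 and 8107 in deletion hearts, against 8344, 8151 and 9681 in wild-type hearts. Trim63 had 2808, 2595 and 2281 in deletion hearts, against 2864, 2456 and 3671 in wild-type hearts. The log2 fold changes of the 9 ranged from -0.21 (Trim63) to 0.03, and Cap2 and Fhod3, both regulators of actin filaments, stood at -0.03 and 0.03.

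Ratios between paired isoforms within a library do not depend on its scaling. The log2 ratio of levels per kb was compared for 8 pairs by an exact two-sided permutation test, in which 3 libraries against 3 cannot give a p below 0.1. The Tnni1 to Tnni3 ratio, of slow skeletal to cardiac troponin I, was 3.05, 2.97 and 2.82 in deletion hearts, against 4.13, 3.75 and 3.89 in wild-type hearts. All 3 deletion libraries were below all 3 wild-type libraries, although the Tnni1 counts alone overlapped; the log2 difference was -0.41 (exact p = 0.1, 0.4 adjusted over the 8 pairs). The log2 ratio of Tpm2 to Tpm1 was -4.67, -4.55 and -4.62 in deletion hearts, against -5.15, -4.78 and -5.13 in wild-type hearts. It was higher in all 3 deletion libraries, by 0.41 (exact p = 0.1, 0.4 adjusted). Leaving out each library in turn gave differences of -0.45 to -0.38 for the troponin pair and 0.34 to 0.53 for the tropomyosin pair.

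The other 6 pairs overlapped between the groups. The α to β heavy chain pair, Myh6 to Myh7, had a log2 ratio of -0.27, -0.37 and -0.37 in deletion hearts, against -0.36, -0.51 and -0.47 in wild-type hearts, a difference of 0.11 (exact permutation p = 0.3). The atrial to ventricular light chain pairs differed by -0.11 (Myl7 to Myl2) and -0.01 (Myl4 to Myl3), the actin pairs by 0.08 (Acta1 to Actc1) and -0.03 (Acta2 to Actc1), and Tnnt1 to Tnnt2 by 0.11.

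**Figure D3:**
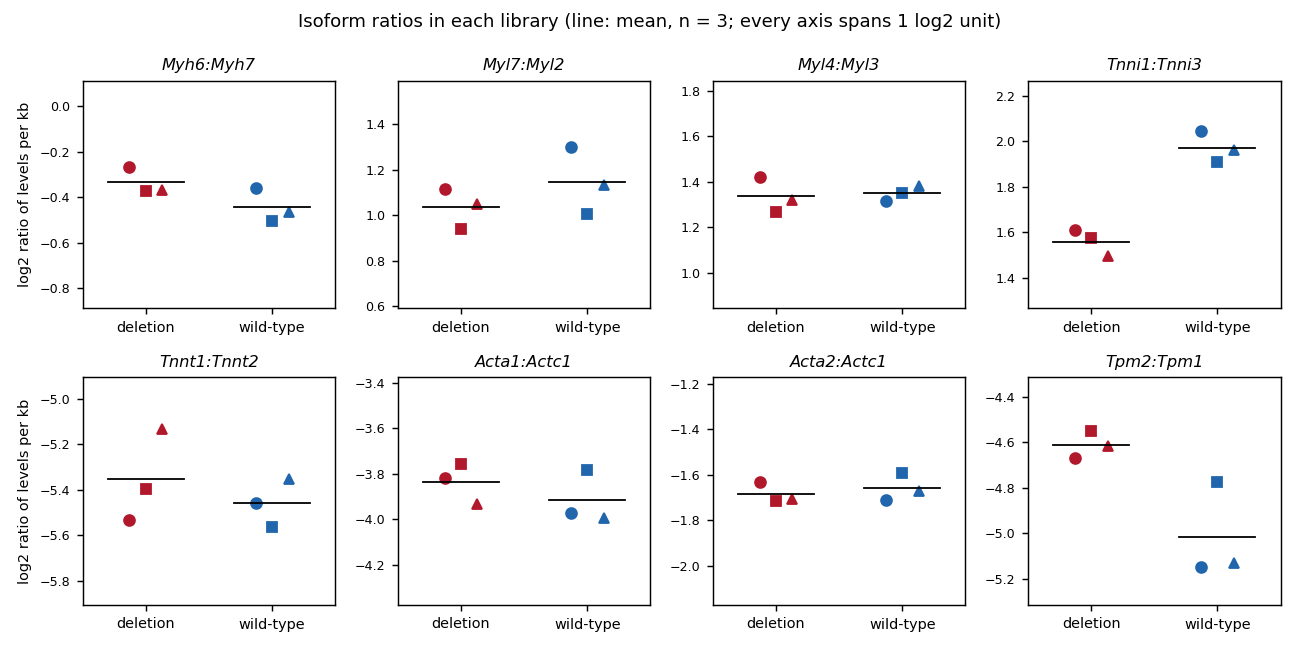
Log2 ratio of levels per kb for 8 isoform pairs in each library, with every axis spanning 1 log2 unit and lines at the means (n = 3). The groups separate for Tnni1:Tnni3, lower in deletion hearts, and Tpm2:Tpm1, higher in deletion hearts, and overlap for the other 6 pairs.

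Fold change moved with transcript length. The 15 members with a transcript over 4000 bases had a median log2 fold change of 0.13, and 13 were positive; the 15 under 2000 bases had a median of -0.08, and 6 were positive. All genes showed the same order, with medians of 0.04 over 4000 bases and -0.10 under 2000 bases. The libraries of a group differed in this trend. Over all genes, the slope of log2 deviation on log2 length was 0.0228, 0.0150 and 0.0403 in the deletion libraries. In the wild-type libraries it was -0.0660, 0.0148 and -0.0270, steepest in replicate 1, with replicate 2 close to deletion replicate 2. Over the members, wild-type replicate 1 had -0.10 and wild-type replicate 2 had 0.03. Across the 49 members, which share the same 6 libraries, Spearman's rho between length and fold change was 0.42 and Pearson's r 0.33, and across 14849 genes rho was 0.26. After removal of each library's trend with length and GC content, 2 members were called higher and 0 lower (all genes 3.24%, with 1.25% higher and 1.99% lower). The members over 4000 bases then had a median of 0.03 and those under 2000 bases one of 0.05. Ttn then had a log2 fold change of 0.0068, against 0.40 as deposited, Obsl1 0.0023 against 0.21, Myh6 0.15 against 0.29 and Mybpc3 0.12 against 0.23. These 4 genes lost much of their difference, whereas Myoz2 stood at 0.87 (adjusted p = 0.0257, limma), Ankrd1 at 0.43 and Myot at -1.15. Myh7b kept its call at 0.50 (adjusted p = 0.0184), and Tpm2 at 0.28 did not (adjusted p = 0.0653).

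**Figure D4:**
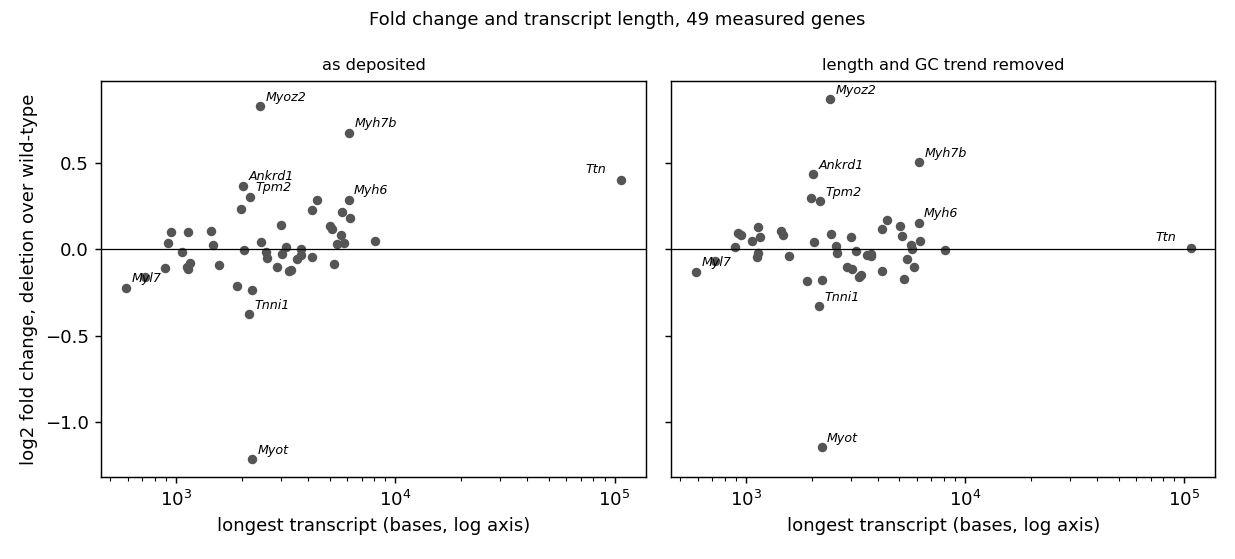
Log2 fold change, deletion over wild-type, against the longest transcript in bases (log axis) for the 49 measured members, as deposited (left) and with the trend of length and GC content removed (right). Spearman's rho is 0.42 on the left and 0.0051 on the right; Ttn moves to near 0 and Myoz2 stays high.

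Members moved together within libraries. Their share of all normalized counts was 6.05%, 6.00% and 5.50% in the deletion libraries and 5.61%, 5.16% and 5.80% in the wild-type libraries. In wild-type replicate 2 only 4 of the 49 stood above their own mean over the 6 libraries, against 38 in wild-type replicate 3, 40 in deletion replicate 1 and 17 in deletion replicate 3. The same counts over all genes are not given here, so whether these shifts are particular to the members was not tested. The median deviation from that mean was 0.06, 0.04 and -0.06 on the log2 scale in the deletion libraries, against -0.0019, -0.15 and 0.11 in the wild-type libraries. The difference between wild-type replicates 2 and 3 was thus wider than the difference in medians between the groups. The 8 measured markers of primitive erythroid cells summed to 85940, 218699 and 459302 normalized counts in the deletion libraries, against 206975, 353780 and 120845 in the wild-type libraries. In each group the library with the highest erythroid sum was the one with the lowest median member deviation. Rescaled to equal totals without haemoglobin genes, 4 members were called higher, Myh7b, Tpm2, Myoz2 and Synpo2l, against 602 genes in all and 467 as deposited. The median log2 fold change was then 0.06 over the members and 0.04 over all genes.

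**Figure D5:**
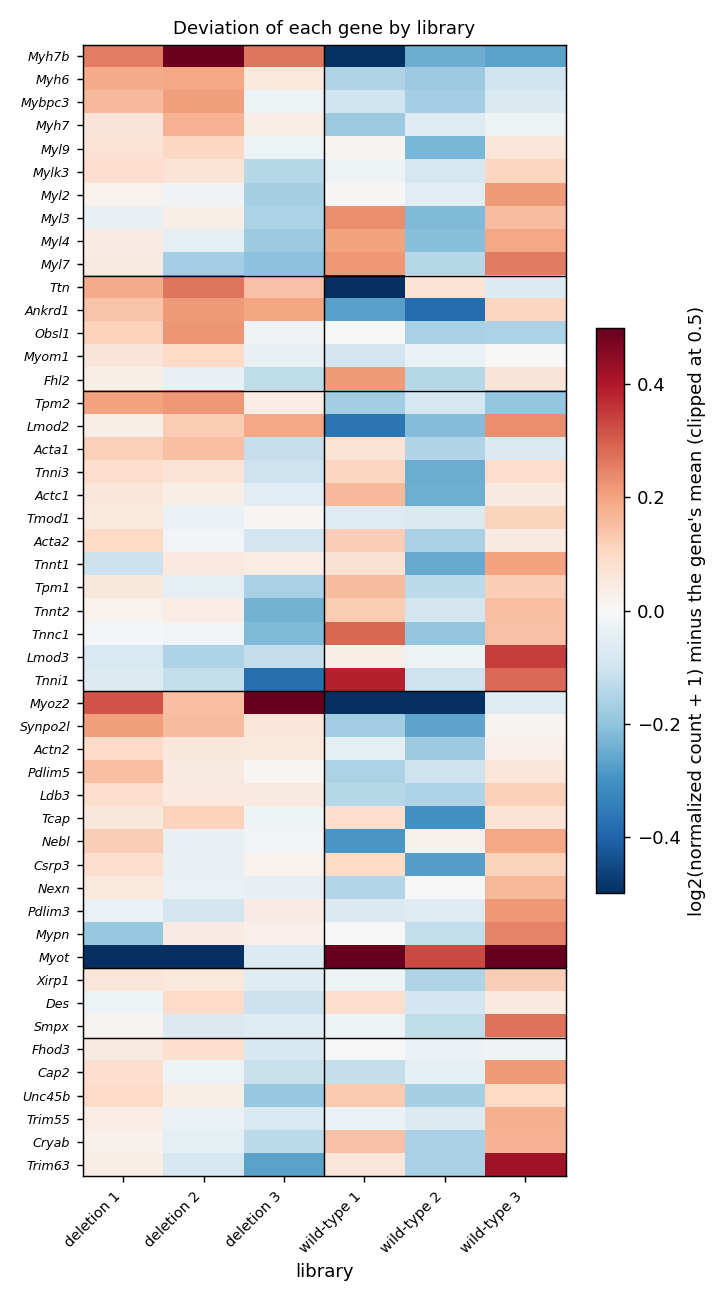
Deviation of each member from its mean over the 6 libraries, log2(normalized count + 1), colours clipped at 0.5, deletion libraries left of wild-type libraries and members grouped by role. Most members are below their mean in wild-type replicate 2, where 4 of 49 are above it, and above it in wild-type replicate 3.

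The 5 members with a MEF2 site in the promoter window had a median log2 fold change of 0.28, with 4 of the 5 (Mybpc3, Ttn, Myoz2 and Synpo2l) at an unadjusted limma p under 0.05. The 36 members with a window without that site had a median of 0.01, with 6 at such a p. Of all genes, 21.4% reached an unadjusted limma p under 0.05. With the length and GC trend removed the median of the 5 was 0.12. At an adjusted limma p under 0.05, none of the 5 was called as deposited, and Myoz2 alone was called with the trend removed. No median with the trend removed is given for the 36, and all genes with a MEF2 site were not compared. The 8 members with a CArG box had a median of 0.05, ranging from -0.22 to 0.12, and none had an unadjusted limma p under 0.05. This grouping was looked at after the fold changes were known, and it was given no test.

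A list of 82 other sarcomere and cytoskeleton genes had 72 measured, of which 5 rose and 2 fell in limma, 9.72% against 3.05% of all genes. The list was chosen with earlier results of these data known, so this share does not test for an excess. Synm (synemin, a partner of desmin) had 1340.5, 1279 and 1226 normalized counts in deletion hearts, against 795, 939 and 1012 in wild-type hearts (log2 fold change 0.49, adjusted p = 0.0265, limma). Mylk (smooth muscle light chain kinase), Lmod1 (smooth muscle leiomodin) and Speg (a striated muscle kinase) also rose, with log2 fold changes of 0.49, 0.33 and 0.33. Fhl1, a LIM protein of the titin spring, had 5611, 5522 and 5139.5 in deletion hearts, against 6684, 6715 and 6691 in wild-type hearts (log2 fold change -0.31, adjusted p = 0.0310). Mybpc1, slow skeletal myosin binding protein C, had 40.1, 50.1 and 94.0 in deletion hearts, against 160.0, 126 and 173 in wild-type hearts (log2 fold change -1.39, adjusted p = 0.0355). In all 7 the groups did not overlap, and each lost its call in at least 3 of the 6 fits that left out a library. With the length and GC trend removed, 1 of the 72 was called higher and 2 lower, against 1.25% and 1.99% of all genes. Speg then stood at 0.06.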

How the data were processed

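Per the labels' protocols, total RNA of dissected hearts (300 ng) was made into stranded poly(A) libraries. STAR 2.7.9a, Subread 2.0.1, featureCounts, DESeq2 1.30.1 and bcl2fastq 2.20 are named in the submitters' processing notes, with the builds mm39 and GRCm39. Per the file headers, the authors deposited normalized counts, a signal per gene; 5 single-column files repeat columns of the 6-column table. Values were whole multiples of 1 read for 100% of values (tolerance 0.01), which gave 25583210 to 32043595 reads per library over the 15330 genes.

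limma 3.58.1 (R 4.3.3) with an intensity trend was run on log2(normalized count + 1) of all 15330 genes; a minimum mean of 10 removed none. P-values are two-sided, Benjamini-Hochberg adjusted over all genes, with a threshold of 0.05, and fold changes are deletion minus wild-type. On the recovered reads edgeR 4.0.16 called 499 genes, against 467 in limma, and DESeq2 1.42.0 called 1139. The script was tested on simulated data. Lengths, GC content and overlaps come from GENCODE M21 (GRCm38), since no annotation of the authors' build was used here. Of the 49 members, 16 share exon bases with another annotated gene.

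Members, lists and role groups were chosen with earlier results of these data known. Values in every library are given for members past either threshold (adjusted, or unadjusted p under 0.05) and, per role group, for the 3 highest per kb and the 2 with the largest fold change; Myh7 was added after its values were seen. Alternatives covered scaling, pseudocount, filter, tool, covariates, sample assignment and each library left out. Of the genes called in the wider sarcomere list, 1 is not reported here.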

Additional observations from a re-analysis of the deposited data

How the results depend on the processing

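Of the 49 members, 2 were called higher and 0 lower. Higher calls numbered 4 with quantile normalization, 4 with equal totals without haemoglobin, 8 with DESeq2, 0 without an intensity trend (7 at an unadjusted limma p under 0.05), 0 in the female libraries (10 unadjusted) and 0 with recorded files (0 unadjusted), and 1 to 3 when a library was left out. The share of all genes at an unadjusted p is not given for these settings, so the unadjusted counts cannot be set against a background. Lower calls numbered 2 with DESeq2, 1 with sex as a term and 0 to 2 when a library was left out. With sex as a term the called members were Myh7b, Myoz2 and Myot, without Tpm2. Calls over the whole table numbered 527 with quantile normalization, 602 with equal totals, 1139 with DESeq2, 146 without the trend, 35 in the female libraries and 346 with sex as a term. Genes called over the whole table numbered 103 to 1161 when a library was left out, the most without wild-type replicate 2 and the fewest without deletion replicate 2, against 467 with all 6.

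Under the recorded files the median of the members was -0.13, and the log2 fold changes had the opposite sign for Myh6 (-0.18), Myh7b (-0.32), Mybpc3 (-0.20), Obsl1 (-0.12), Tpm2 (-0.15), Ttn (-0.26), Myoz2 (-0.27), Myot (0.56), Ankrd1 (-0.31) and Synpo2l (-0.25). So had the ratios Myh6:Myh7 (-0.0426), Myl7:Myl2 (0.0540), Tnni1:Tnni3 (0.10), Acta1:Actc1 (-0.0388), Acta2:Actc1 (0.0052) and Tpm2:Tpm1 (-0.0637). That setting mixes the titled groups. Myl4:Myl3 was 0.0128 in the female libraries. With a library left out, Myl4:Myl3 ranged from -0.0542 to 0.0224, Tnnt1:Tnnt2 from -0.0044 to 0.19 and Acta2:Actc1 from -0.0537 to 0.0068; the cause was not tested. Of the 18 members named by level or size alone, 15 changed sign in at least 1 alternative, with values between -0.19 and 0.10.

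The replicate numbers did not pair the libraries. Same-numbered deviations correlated at -0.03, -0.12 and -0.14, and no library correlated best with its own number. Deletion replicates 1, 2 and 3 correlated best with wild-type replicates 3, 1 and 2, at 0.21, 0.18 and 0.25. With the replicate block 2 members were called higher and 0 lower, Myh7b and Myoz2, and 206 genes in all.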

Other observations

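Of the genes that share exon bases with a member, 10 overlaps in 9 members have a partner in the table. Mhrt, a long non-coding RNA antisense to Myh7, had 250.2, 264 and 163 normalized counts in deletion hearts, against 103, 164 and 123 in wild-type hearts (log2 fold change 0.79, adjusted p = 0.0834, limma; DESeq2 adjusted p = 0.0102). Deletion replicate 3 lay within the wild-type range. Gm43185, on the same strand as Nexn, had 345, 260.0 and 269 in deletion hearts, against 107, 209.9 and 217 in wild-type hearts, with no overlap between the groups (log2 fold change 0.77, adjusted p = 0.121, limma; DESeq2 adjusted p = 0.0289). Nexn itself, with 14815 ± 537 in deletion hearts and 15018 ± 1642 in wild-type hearts (SD, n = 3 each), did not pass.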
